A study of Caenorhabditis elegans with 6 samples.

Results

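The genes described here are 10 enzymes of the methionine cycle and of phosphocholine synthesis in Caenorhabditis elegans, taken by WormBase symbol from the 46911 genes counted in each library: sams-1, sams-3, sams-4, sams-5, pmt-1, pmt-2, metr-1, mtrr-1, ahcy-1 and mel-32. Their RNA was compared between 3 libraries of strain VC295, which carries unc-30(ok613) on chromosome IV, and 3 libraries of the wild-type strain N2, each made from whole animals at the fourth larval stage (L4). unc-30 encodes a homeodomain transcription factor of GABAergic motor neurons, and all 6 libraries came from animals grown on E. coli OP50 at 20 °C. For each library 40 gravid animals laid eggs for 3 hours on 10 cm plates. The genotype field of the wild-type samples also reads unc-30(ok613), so groups were taken from titles and strains. How often the strain was outcrossed was not given in the sources used here. The labels do not say whether replicates were separate cultures, and p-values then cover only the spread between these libraries, possibly a technical spread.

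The methionine cycle turns methionine into S-adenosylmethionine (SAM), the donor of methyl groups for lipids, proteins and nucleic acids. SAM synthetases make SAM, methyltransferases spend it and leave S-adenosylhomocysteine, S-adenosylhomocysteine hydrolase splits that product, and methionine synthase returns homocysteine to methionine with a methyl group from folate. In worms a large user of SAM is the methylation of phosphoethanolamine to phosphocholine by PMT-1 and PMT-2, which feeds the synthesis of phosphatidylcholine, and loss of sams-1 or pmt-1 is known to lower phosphatidylcholine and to raise lipogenic genes in the intestine.

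Total counts were 20188810 to 24498576 in unc-30(ok613) and 17318736 to 26377332 in wild type. Counts of unc-30 were 20, 24 and 17 in unc-30(ok613) replicates 1 to 3, and 23, 26 and 17 in wild type. They do not check the labels, because counting was not restricted to the deleted part, whose extent was not given in the sources used here. Mitochondrial genes other than ribosomal RNA made up 1.72% to 2.43% of counts in unc-30(ok613) and 0.862% to 1.28% in wild type, and the part of this in the results below was not tested. On the first principal component of log2 CPM, unc-30(ok613) replicate 1 (-31.8, against -93.3 and -94.7 in replicates 2 and 3) and wild type replicate 2 (36.0, against 90.3 and 93.5) stood apart from the rest of their groups, and the results that rest on them are given with and without them. Levels below are counts scaled to a common library total (CPM) scaled by trimmed mean of M-values (TMM) factors, which set the bulk of genes to no change. These factors were 0.654 to 0.760 in unc-30(ok613) and between 1.38 and 1.49 in wild type. Library-total scaling, which divides by the total count alone, lowered the median log2 fold change of all 14506 tested genes by 1.01, from -0.10 to -1.11. Every direction on the TMM scale is therefore relative to that bulk, and values under library-total scaling are given beside those of the genes and lists described.

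Of the 10 genes, all 10 passed the expression filter. On the TMM scale 5 rose in unc-30(ok613), 0 fell and 5 did not pass edgeR's quasi-likelihood test at an adjusted p under 0.05. The 5 that rose were ahcy-1, sams-1, pmt-2, mel-32 and sams-5. Over all tested genes 17.1% rose and 20.9% fell. The count of 0 falls was also 0 at an unadjusted p under 0.05, with DESeq2 and with limma-voom. The median log2 fold change of the 10 genes was 0.64, beside -0.10 over all tested genes. Under library-total scaling 1 gene rose (ahcy-1) and 5 fell (sams-3, sams-4, pmt-1, metr-1 and mtrr-1), where 3.43% of all tested genes rose and 56.4% fell, and the median was -0.37. The values of unc-30(ok613) lay above all wild-type values for 6 of the 10 genes and below them for 0, and the same held for 24.4% and 28.2% of all tested genes. The number of rises was 2 without unc-30(ok613) replicate 2 or replicate 3 and 3 without wild type replicate 3, and it was 5 without both libraries that stood apart. Over all tested genes 1402 rose without unc-30(ok613) replicate 2 and 1359 without replicate 3, beside 2476 with all libraries.

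**Figure D1:**
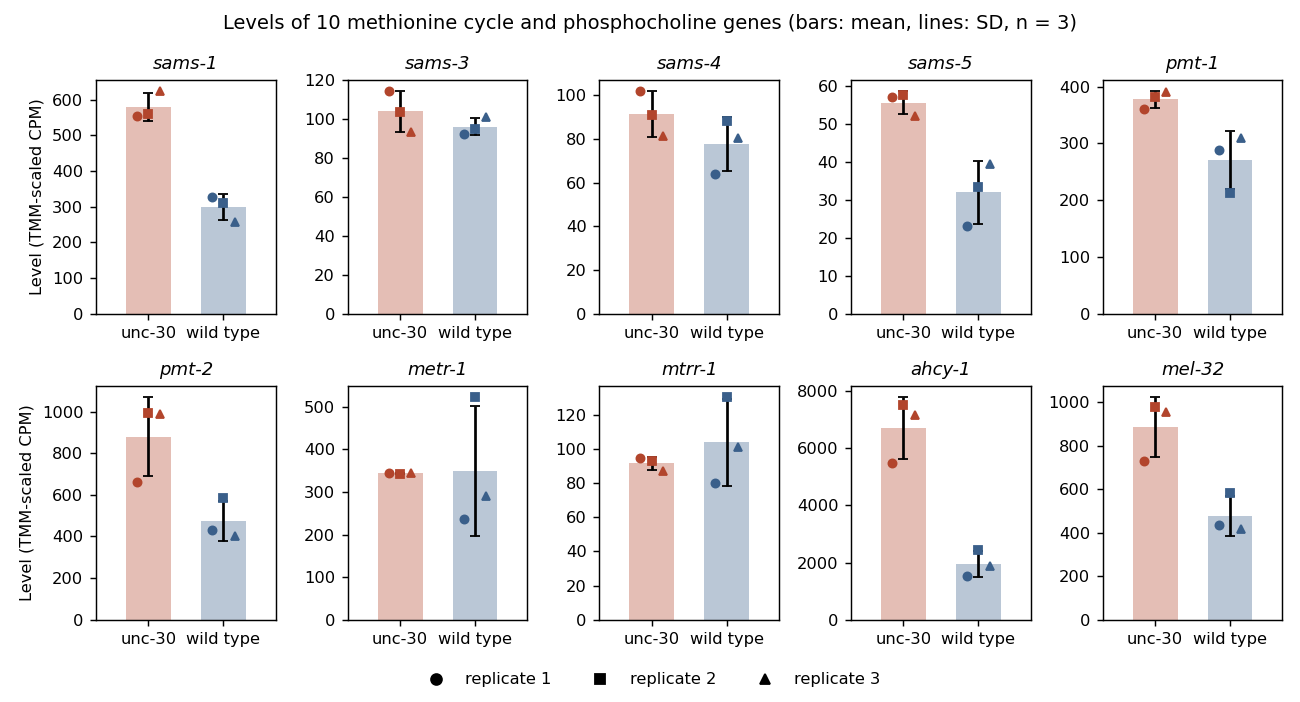
Level of each of the 10 genes in TMM-scaled CPM, with unc-30(ok613) at the left and wild type at the right of each panel (bars, mean; lines, SD; n = 3; symbols, libraries). The 3 unc-30(ok613) libraries lie above the 3 wild-type libraries for sams-1, sams-5, pmt-1, pmt-2, ahcy-1 and mel-32 on this scale, and metr-1 and mtrr-1 are highest in wild type replicate 2.

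sams-1 and sams-5 rose among the SAM synthetase genes, while sams-3 and sams-4 did not pass. sams-1 (WBGene00008205, chromosome X, 11965962 to 11969893, plus strand, WBcel235), the synthetase best known for supplying SAM to phosphatidylcholine synthesis, had 555, 560 and 625 CPM in unc-30(ok613) replicates 1 to 3, against 327, 311 and 258 CPM in wild type. The groups did not overlap. The mean was 580 ± 38.6 CPM in unc-30(ok613) and 299 ± 36.2 CPM in wild type (SD, 3 libraries per group), a difference of 0.96 ± 0.19 in log2 (SE; adjusted p = 0.00642 by edgeR). The change was 1.94-fold on the TMM scale and -0.07 in log2 under library-total scaling (adjusted p = 0.759, edgeR).

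sams-5 (WBGene00006416, chromosome IV, 6277433 to 6279522, minus strand), a paralog with the lowest level per length of the 10 genes, had 57.1, 57.6 and 52.0 CPM in unc-30(ok613) and 23.0, 33.3 and 39.4 CPM in wild type. The unc-30(ok613) libraries were again all higher and close to each other, and the wild-type libraries were spread more widely. The difference was 0.80 ± 0.25 in log2 (SE; adjusted p = 0.0331, edgeR), and -0.20 under library-total scaling. Its call was lost without unc-30(ok613) replicate 2 (adjusted p = 0.0864, edgeR) or 3 (0.0715) and without wild type replicate 1 (0.0738) or 2 (0.0502).

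sams-3 (WBGene00015538, chromosome IV, 5848657 to 5850843, plus strand) and sams-4 (WBGene00015540, chromosome IV, 5844061 to 5846369, minus strand) are closely related neighbours that point away from each other, with 2287 bases between them. sams-3 had 114.4, 104 and 93.4 CPM in unc-30(ok613) and 92.5, 94.8 and 101 CPM in wild type. sams-4 had 102, 91.0 and 81.2 CPM in unc-30(ok613) and 64.0, 88.4 and 80.6 CPM in wild type. The groups overlapped for both genes. The log2 fold changes were 0.11 for sams-3 (95% interval of the fit -0.31 to 0.53; adjusted p = 0.649, edgeR) and 0.24 for sams-4 (-0.24 to 0.71; adjusted p = 0.398, edgeR). Under library-total scaling they were -0.89 and -0.77, and both genes fell (adjusted p = 0.00703 and 0.0203, edgeR). The rule for reads that fit both copies was not given in the sources used here, and the separate levels of sams-3 and sams-4 are uncertain. sams-3 also overlaps C06E7.4 on the minus strand, which had 310, 343 and 296 counts in unc-30(ok613) and 376, 864 and 546 counts in wild type, and without the strand setting the reads of these genes cannot be told apart.

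Shares within a library do not depend on a constant scaling factor between libraries, but length trends can move them. The shares below also include the uncertain levels of sams-3 and sams-4, and reads dropped from these genes would change every share. Of the summed SAM synthetase level, counted per kilobase of exon over the 4 genes, sams-1 made up 62.2%, 64.1% and 68.9% in unc-30(ok613) replicates 1 to 3, and 60.3%, 54.2% and 48.9% in wild type. The means were 65.1% ± 3.48 in unc-30(ok613) and 54.4% ± 5.70 in wild type (SD, 3 libraries per group), a difference of 10.7 percentage points (two-sided exact permutation p = 0.1, the smallest that 3 against 3 libraries allow). The share of sams-3 was 13.2% ± 1.43 in unc-30(ok613) and 19.8% ± 1.55 in wild type, and that of sams-4 was 12.3% ± 1.48 in unc-30(ok613) and 16.9% ± 2.45 in wild type (SD, 3 libraries per group). For both genes every unc-30(ok613) library was below every wild-type library. The share of sams-5 overlapped between the groups, at 9.48% ± 0.679 in unc-30(ok613) and 8.86% ± 2.45 in wild type (SD, 3 libraries per group).

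ahcy-1, which encodes S-adenosylhomocysteine hydrolase, had the largest rise of the 10 genes and was the only one that rose under both scalings. ahcy-1 (WBGene00019322, chromosome I, 6836469 to 6838140, plus strand) had 5488, 7497 and 7160 CPM in unc-30(ok613) replicates 1 to 3, against 1536, 2430 and 1895 CPM in wild type. Its lowest unc-30(ok613) library was above its highest wild-type library, and the range within each group was smaller than the gap between them. The mean was 6715 ± 1076 CPM in unc-30(ok613) and 1954 ± 450.2 CPM in wild type (SD, 3 libraries per group). The difference was 1.78 ± 0.22 in log2 (SE; 3.44-fold; adjusted p = 0.00237, edgeR), and 0.76 under library-total scaling (adjusted p = 0.00667, edgeR). Leaving out single libraries gave log2 fold changes of 1.64 to 1.98, with edgeR adjusted p-values of 0.00234 to 0.0183. In unscaled terms the gene took 0.417%, 0.523% and 0.468% of all counts in unc-30(ok613), and 0.228%, 0.341% and 0.261% in wild type. A lower log2 fold change than that of ahcy-1 was found for 95.3% of tested genes on the TMM scale and 95.4% under library-total scaling, and the corresponding figures for sams-1 were 83.6% and 83.5%.

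The genes that return homocysteine to methionine did not pass the test on the TMM scale. metr-1 (WBGene00010988, chromosome II, 10926561 to 10931078, plus strand) encodes the vitamin B12-dependent methionine synthase. It had 344, 341 and 345 CPM in unc-30(ok613) and 236, 523 and 291 CPM in wild type. The unc-30(ok613) libraries were almost equal, whereas wild type replicate 2 lay above and the other wild-type libraries below them. The log2 fold change was -0.03 (95% interval -0.70 to 0.64; adjusted p = 0.950, edgeR). It was 0.39 without wild type replicate 2 (adjusted p = 0.163, edgeR), and ranged from -0.24 to 0.39 when single libraries were left out, so its direction is not settled. mtrr-1 (WBGene00006510, chromosome II, 9285975 to 9289132, plus strand), the gene of methionine synthase reductase, which reactivates the synthase, had 94.3, 92.8 and 87.2 CPM in unc-30(ok613) and 79.8, 130 and 101 CPM in wild type. It was also highest in wild type replicate 2 and the groups overlapped. Its log2 fold change was -0.18 (95% interval -0.69 to 0.33; adjusted p = 0.541, edgeR), and 0.02 without wild type replicate 2. Under library-total scaling metr-1 and mtrr-1 fell, with log2 fold changes of -1.03 and -1.19 (adjusted p = 0.0145 and 0.00333, edgeR), close to the median of all genes on that scale.

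mel-32 (WBGene00003214, chromosome III, 6440145 to 6443000, minus strand), which encodes the serine hydroxymethyltransferase that loads folate with carbon from serine, rose on the TMM scale. It had 728, 977 and 953 CPM in unc-30(ok613) and 435, 582 and 416 CPM in wild type. Each unc-30(ok613) library was above each wild-type library, with unc-30(ok613) replicate 1 nearest to wild type and wild type replicate 2 nearest to unc-30(ok613). The difference was 0.89 ± 0.22 in log2 (SE; 1.86-fold; adjusted p = 0.0141, edgeR), and -0.13 under library-total scaling. The call was lost without unc-30(ok613) replicate 2 (adjusted p = 0.0691, edgeR) or 3 (0.0685) or wild type replicate 3 (0.0619). Without both libraries that stood apart it was 1.22.

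Of the phosphoethanolamine methyltransferase genes, pmt-2 rose on the TMM scale and pmt-1 did not pass. pmt-2 (WBGene00018811, chromosome V, 4628580 to 4635263, plus strand), whose enzyme carries out the later methylations to phosphocholine, had 661, 993 and 986 CPM in unc-30(ok613) and 431, 584 and 404 CPM in wild type. The groups did not overlap, and the same pair of libraries as for mel-32 lay nearest to the other group. The difference was 0.90 ± 0.24 in log2 (SE; 1.86-fold; adjusted p = 0.0200, edgeR), and -0.13 under library-total scaling. The call was lost without unc-30(ok613) replicate 2 (adjusted p = 0.0855, edgeR) or 3 (0.0874) or wild type replicate 3 (0.0812), and without both libraries that stood apart the log2 fold change was 1.28.

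pmt-1 (WBGene00022781, chromosome II, 5278090 to 5282523, minus strand), whose enzyme adds the first methyl group to phosphoethanolamine, had 361, 382 and 390.1 CPM in unc-30(ok613) and 289, 213 and 310 CPM in wild type. The unc-30(ok613) libraries were all higher, and wild type replicate 2, where pmt-2 was highest within wild type, was the lowest for pmt-1. The log2 fold change was 0.48 (95% interval 0.02 to 0.95; edgeR unadjusted p = 0.0444, adjusted p = 0.0936). pmt-1 passed as higher when length trends were removed (0.71; adjusted p = 0.0219, edgeR) and as lower under library-total scaling (-0.54; adjusted p = 0.0427, edgeR).

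**Figure D2:**
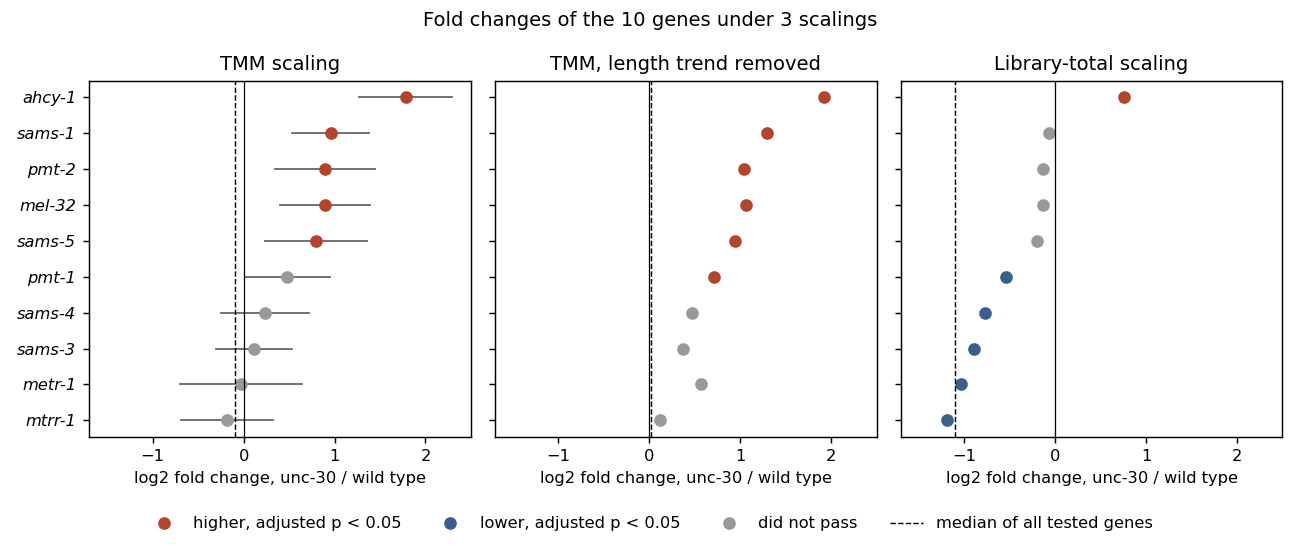
Log2 fold change of the 10 genes, unc-30(ok613) over wild type, under TMM scaling (lines, 95% interval of the fit), under TMM scaling with length trends removed and under library-total scaling. Red points passed as higher, blue as lower and grey did not pass (edgeR adjusted p under 0.05), and the dashed line is the median of all tested genes; ahcy-1 is highest and mtrr-1 lowest in all 3 panels, and 7 of the 10 genes turn from above 0 to below 0 between the first panel and the last.

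The log2 fold change also varied with gene length across the whole table. Its median was 0.36 among the shortest of 5 equal bins of exonic length and -0.49 among the longest. Of the 10 genes, metr-1, with 3948 exonic bases, fell in the longest bin. The bin of 1597 to 2302 bases (median -0.20) held 6 of the genes, and that of 1167 to 1596 bases (median -0.13) held ahcy-1, pmt-2 and sams-5. With length trends removed the log2 fold changes of all 10 genes were above 0, from 0.12 (mtrr-1) to 1.92 (ahcy-1), metr-1 was at 0.57 (adjusted p = 0.159, edgeR), and 6 genes rose. Of all 14506 tested genes 2813 rose and 2643 fell in this setting, and their median was 0.02. The part of length in these results was not tested otherwise.

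Levels per kilobase of exon allow the genes to be ranked within a group. In unc-30(ok613) the mean TMM-scaled CPM per kilobase was 4372 for ahcy-1, 559 for pmt-2, 526 for mel-32, 257 for sams-1, 201 for pmt-1, 87.0 for metr-1, 52.0 for sams-3, 48.4 for sams-4, 42.1 for mtrr-1 and 37.4 for sams-5. In wild type it was 1272 for ahcy-1, 301 for pmt-2, 284 for mel-32, 144 for pmt-1, 132 for sams-1, 88.6 for metr-1, 48.1 for sams-3, 47.8 for mtrr-1, 41.1 for sams-4 and 21.5 for sams-5. ahcy-1 lay above all other members in every library. The ranges of pmt-2 and mel-32 overlapped in both groups, as did those of sams-3 and its next lower neighbour. sams-1 was above pmt-1 without overlap in unc-30(ok613) (246 to 277 against 192 to 208 CPM per kilobase), whereas these genes overlapped in wild type (114.3 to 145 against 113 to 165).

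Ratios between pairs of members within each library, which no constant scaling factor of a library can move, were compared for 9 pairs. Length trends that differ between libraries can move them, most for pairs with the long gene metr-1. With these trends removed, the log2 fold changes were 0.57 for metr-1, 1.06 for mel-32 and 1.92 for ahcy-1. They were -0.03, 0.89 and 1.78 on the TMM scale. The ratios themselves were not computed with length trends removed. The counts per kilobase of sams-1 relative to sams-3 were 4.30, 4.78 and 5.91 in unc-30(ok613) and 3.13, 2.90 and 2.26 in wild type. Those of metr-1 relative to ahcy-1 were 0.0244, 0.0177 and 0.0188 in unc-30(ok613) and 0.0598, 0.0837 and 0.0597 in wild type. Both ratios separated the groups, the first upwards and the second downwards in unc-30(ok613).

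On the log2 scale the difference between unc-30(ok613) and wild type was 0.85 for sams-1 over sams-3, 0.72 for sams-1 over sams-4 and 0.84 for mel-32 over metr-1. It was -0.83 for sams-1 over ahcy-1 and -1.74 for metr-1 over ahcy-1. In these 5 pairs the groups did not overlap (two-sided exact permutation p = 0.1 for each, the smallest the design allows, and 0.18 adjusted over the 9 pairs). The pairs share members and are not separate results. How often ratios of other gene pairs separate the groups was not computed. Of single tested genes 24.4% lay wholly above wild type and 28.2% wholly below on the TMM scale. ahcy-1 stood higher relative to sams-1 as well as to metr-1 in every unc-30(ok613) library. sams-1 stood higher there relative to sams-3 and sams-4, whose separate levels are uncertain. The groups overlapped in the other 4 pairs. There the differences were -0.13 for sams-3 over sams-4, 0.13 for sams-1 over sams-5, -0.39 for pmt-1 over pmt-2 and 0.21 for metr-1 over mtrr-1 (two-sided exact permutation p = 0.4, 0.7, 0.4 and 0.4). These 4 values varied with the library left out, and only that of sams-1 over sams-5 changed sign. sams-1 over sams-5 ran from -0.14 without wild type replicate 3 to 0.42 without wild type replicate 1, and sams-3 over sams-4 from -0.24 without wild type replicate 2 to -0.03 without wild type replicate 1. pmt-1 over pmt-2 ran from -0.71 without wild type replicate 2 to -0.18 without wild type replicate 3, and metr-1 over mtrr-1 from 0.13 without wild type replicate 3 to 0.37 without wild type replicate 2. Without both libraries that stood apart, a setting chosen after seeing the data, the groups did not overlap for sams-3 over sams-4 (-0.23), pmt-1 over pmt-2 (-0.88) or metr-1 over mtrr-1 (0.39), with 2 libraries left in each group and no test. The 5 other differences that separated the groups still did so there, from -1.71 for metr-1 over ahcy-1 to 0.998 for sams-1 over sams-3.

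**Figure D3:**
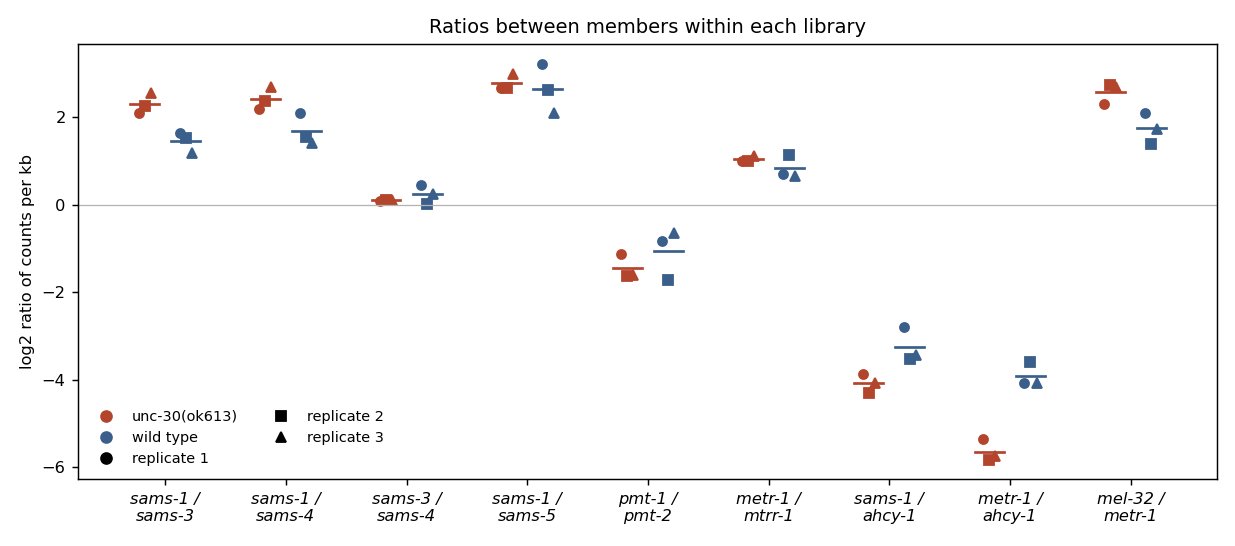
Log2 ratio of counts per kilobase of exon for 9 pairs of members in each library, with unc-30(ok613) at the left and wild type at the right of each pair (lines, group means; n = 3). The groups separate for sams-1 over sams-3, sams-1 over sams-4, sams-1 over ahcy-1, metr-1 over ahcy-1 and mel-32 over metr-1, and overlap for the other 4 pairs.

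The tested genes that are no members and whose pattern over the 6 libraries was most like that of sams-1, by the root-mean-square difference of log2 CPM centred on each gene's mean, were pod-2 (0.0438), cct-8 (0.0501), fkh-9 (0.0523), sel-11 (0.0560) and paa-1 (0.0638). pod-2 encodes acetyl-CoA carboxylase, which makes the building block of fatty acids, and cct-8 encodes a subunit of a cytosolic chaperonin. The log2 fold changes of these 5 genes were 0.88 to 1.04 on the TMM scale and -0.14 to 0.02 under library-total scaling. The genes were picked from all tested genes for this likeness, so fold changes near those of sams-1 follow from the choice. Whether they share anything else with sams-1 was not tested.

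Other genes that feed or use the cycle were read from 6 lists with 86 symbols, of which 82 matched and 79 were tested. On the TMM scale 23 of them rose and 8 fell (29.1% and 10.1%, beside 17.1% and 20.9% of all tested genes), with a median log2 fold change of 0.31. Under library-total scaling 3 rose and 39 fell (3.80% and 49.4%, beside 3.43% and 56.4% of all tested genes), and the median was -0.71, beside -1.11 over all tested genes. The numbers of rises and falls were 9 and 2 without unc-30(ok613) replicate 2, 10 and 1 without replicate 3, and 14 and 4 without wild type replicate 3. The falls numbered 5 without unc-30(ok613) replicate 1 and 4 without wild type replicate 1. Without unc-30(ok613) replicate 2, 1402 of 14878 tested genes rose and 1424 fell, and without replicate 3, 1359 of 15075 rose and 1432 fell. With all libraries 2476 of 14506 rose and 3035 fell. The counts of each list below are to be read against the shares of all tested genes given above. Where a library was left out, the calls over all tested genes changed too.

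In the folate list, which supplies the methyl group used by metr-1, 4 of 11 tested genes rose and 0 fell on the TMM scale (median 0.53), and 0 rose and 3 fell under library-total scaling. The count of 0 falls on the TMM scale was also 0 at an unadjusted p under 0.05, with DESeq2 and with limma-voom. The rises numbered 1 without unc-30(ok613) replicate 2 or 3 and 2 without wild type replicate 3. mthf-1, the gene of methylenetetrahydrofolate reductase, which makes the methyl-folate that metr-1 uses, averaged 518 ± 114.2 CPM in unc-30(ok613) and 230.3 ± 45.6 CPM in wild type (SD, 3 libraries per group; log2 fold change 1.17; adjusted p = 0.00757, edgeR). dao-3, a methylenetetrahydrofolate dehydrogenase gene, had a log2 fold change of 1.12 (adjusted p = 0.0263, edgeR), and its call was lost without unc-30(ok613) replicate 2 or 3 or wild type replicate 1 or 3. Under library-total scaling these genes did not pass, at 0.14 and 0.10.

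In the vitamin B12 and propionate list 7 of 16 tested genes rose and 3 fell on the TMM scale (median 0.30), and 2 rose and 8 fell under library-total scaling. The rises numbered 4 without unc-30(ok613) replicate 2. The falls numbered 0 without unc-30(ok613) replicate 2 or 3 and 1 without unc-30(ok613) replicate 1 or wild type replicate 3. pccb-1, a subunit gene of the propionyl-CoA carboxylase of the B12-dependent route, averaged 508 ± 48.6 CPM in unc-30(ok613) and 155 ± 36.2 CPM in wild type (SD, 3 libraries per group; log2 fold change 1.71; adjusted p = 0.00267, edgeR). alh-8, a dehydrogenase gene of the B12-independent propionate shunt, averaged 2142 ± 339 CPM in unc-30(ok613) and 705 ± 157 CPM in wild type (SD, 3 libraries per group; log2 fold change 1.60; adjusted p = 0.00284, edgeR). Both also rose under library-total scaling, at 0.68 and 0.58. nhr-10, a nuclear receptor gene known to activate the shunt, and mrp-5, a transporter gene known for heme and vitamin B12 export, fell, with log2 fold changes of -1.22 and -0.85 (adjusted p = 0.0223 and 0.0247, edgeR), and -2.23 and -1.87 under library-total scaling. The fall of nhr-10 lost its call without any unc-30(ok613) library or wild type replicate 3. That of mrp-5 lost its call without unc-30(ok613) replicate 2 or 3 or wild type replicate 1 or 2, and with length trends removed (-0.21).

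In the transsulfuration and cysteine list 3 of 10 tested genes rose and 0 fell on the TMM scale (median 0.39), with 1 fall at an unadjusted p under 0.05 and 0 with DESeq2 or limma-voom. Under library-total scaling 1 rose and 5 fell. The rises on the TMM scale numbered 1 without unc-30(ok613) replicate 2 or 3. cysl-2, a cysteine synthase-like gene, averaged 106 ± 2.64 CPM in unc-30(ok613) and 21.8 ± 10.7 CPM in wild type (SD, 3 libraries per group; log2 fold change 2.29; adjusted p = 0.00336, edgeR), and rose under library-total scaling as well, at 1.26. Its relative cysl-3 rose 2.82-fold (adjusted p = 0.0220, edgeR) and lost its call under library-total scaling (log2 fold change 0.45) and without unc-30(ok613) replicate 2 or 3.

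In the list of choline and ethanolamine phospholipid synthesis 2 of 15 tested genes rose and 2 fell on the TMM scale (median -0.14). Under library-total scaling 0 rose and 11 fell. The choline kinase family genes cka-2 and ckb-4 had log2 fold changes of 0.98 and 0.93 (adjusted p = 0.0210 and 0.0288, edgeR), and -0.04 and -0.10 under library-total scaling. ckb-2, of the same family, and lpin-1, the lipin gene, had log2 fold changes of -0.88 and -0.81 (adjusted p = 0.0235 and 0.0390, edgeR), and lower ones, -1.91 and -1.82, under library-total scaling. These 4 calls depended on single libraries: those of cka-2 and ckb-4 were lost without unc-30(ok613) replicate 2 or 3 or wild type replicate 3, that of ckb-4 also without wild type replicate 1, that of ckb-2 without any library but wild type replicate 2, and that of lpin-1 without any library but unc-30(ok613) replicate 1. That of lpin-1 was also lost with length trends removed (-0.34) and without ribosomal RNA and mitochondrial genes (-0.75). The falls in this list numbered 4 without both libraries that stood apart.

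In the list of methyltransferases that spend SAM and of polyamine genes 5 of 18 tested genes rose and 2 fell on the TMM scale (median 0.46), and 0 rose and 8 fell under library-total scaling. The rises numbered 2 without unc-30(ok613) replicate 2 or 3 or wild type replicate 1 or 3, and 10 without both libraries that stood apart. The falls numbered 1 without unc-30(ok613) replicate 3. comt-3, of the catechol O-methyltransferase family, and icmt-1, an isoprenylcysteine methyltransferase gene, had log2 fold changes of 1.43 and 1.41 (adjusted p = 0.0231 and 0.0140, edgeR), and did not pass under library-total scaling, at 0.41 and 0.40. The log2 fold change of comt-3 was 2.18 without both libraries that stood apart, and its call was lost without unc-30(ok613) replicate 2 or 3 or wild type replicate 1 or 3. The protein arginine methyltransferase genes prmt-7 and prmt-5 fell (adjusted p = 0.00482 and 0.00909, edgeR), with log2 fold changes of -1.44 and -1.002 on the TMM scale and -2.44 and -2.02 under library-total scaling. prmt-7 averaged 11.03 ± 1.57 CPM in unc-30(ok613) and 29.9 ± 5.41 CPM in wild type, and prmt-5 averaged 35.3 ± 3.77 CPM in unc-30(ok613) and 70.7 ± 11.8 CPM in wild type (SD over 3 libraries). The call of prmt-5 was lost without unc-30(ok613) replicate 3 (adjusted p = 0.0674, edgeR).

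In the list of the lipogenic response to low phosphatidylcholine and its regulators 2 of 9 tested genes rose and 1 fell on the TMM scale (median 0.34), and 0 rose and 4 fell under library-total scaling. The rises numbered 1 without unc-30(ok613) replicate 2 or 3 and 4 without wild type replicate 1, and the falls 0 without any of these 3 libraries. The fatty acid desaturase gene fat-5 and pod-2 had log2 fold changes of 1.40 and 0.96 (adjusted p = 0.0287 and 0.00595, edgeR), and 0.36 and -0.06 under library-total scaling. With length trends removed pod-2 was at 1.69. scp-1, which encodes the escort protein of the lipogenic factor SBP-1, had a log2 fold change of -1.01 (adjusted p = 0.0200, edgeR), and -2.01 under library-total scaling. The call of fat-5 was lost without unc-30(ok613) replicate 2 or 3, and that of scp-1 without unc-30(ok613) replicate 2 or 3 or wild type replicate 1 and with length trends removed (-0.46).

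**Figure D4:**
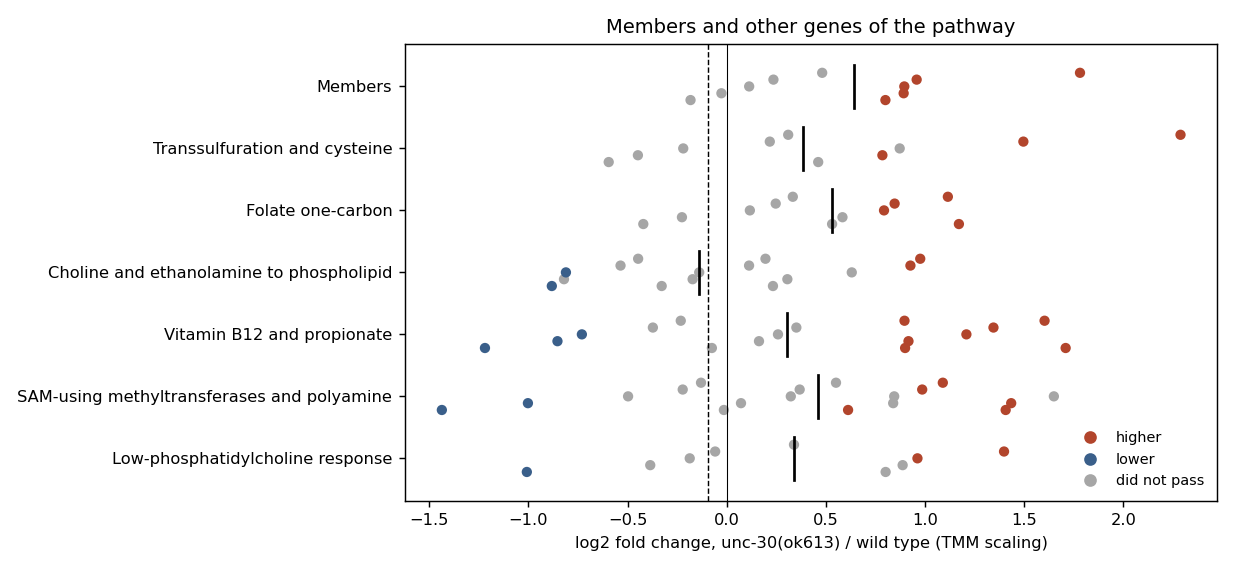
Log2 fold change on the TMM scale, unc-30(ok613) over wild type, of each tested member and of each tested gene in the 6 other lists (red, passed as higher; blue, passed as lower; grey, did not pass; short lines, list medians; dashed line, median of all tested genes). The member median is 0.64 and the list medians run from -0.14 for choline and ethanolamine phospholipid synthesis to 0.53 for folate, and under library-total scaling all of these medians are below 0.

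Whole animals were sequenced, so fewer cells of a type and less RNA per cell cannot be told apart. Many of these enzymes are known to be expressed in the intestine, and marker genes of several tissues moved with the genotype on the TMM scale. The summed level of 10 intestinal markers was 7604 to 11598 CPM in unc-30(ok613) and 2317 to 4061 CPM in wild type, with 4 rises and 1 fall. That of 8 epidermal markers was 3285 to 3981 CPM in unc-30(ok613) and 1531 to 1987 CPM in wild type, with 3 rises, and that of 6 body wall muscle markers was 14241 to 21751 CPM in unc-30(ok613) and 5221 to 9069 CPM in wild type, with 4 rises and 1 fall. That of 7 neuronal markers was 235.2 to 301 CPM in unc-30(ok613) and 153 to 162 CPM in wild type, with 1 rise. The median log2 fold change of the neuronal markers was -0.30, with 3 of the 7 wholly above wild type and 1 wholly below. For the intestinal markers the median was 0.53 (from -1.77 to 1.96), with 4 of the 10 wholly above and 2 wholly below. Of all tested genes 24.4% lay wholly above and 28.2% wholly below, and 17.1% rose and 20.9% fell on the TMM scale. The sums overlapped for 13 germ line markers (2551 to 4914 CPM in unc-30(ok613) and 2709 to 4319 CPM in wild type, with 1 fall), for 12 sperm markers (295 to 316 CPM in unc-30(ok613) and 280.3 to 478 CPM in wild type, with 4 falls) and for 6 yolk genes (760 to 12104 CPM in unc-30(ok613) and 6923 to 25550 CPM in wild type, with no edgeR call and 4 falls by limma-voom). Under library-total scaling 1 intestinal marker rose and 4 fell, and in the other lists 0 rose and 1 epidermal, 2 muscle, 5 neuronal, 7 germ line, 11 sperm and 1 yolk marker fell. These counts are to be read beside all tested genes, of which 3.43% rose and 56.4% fell there. On that scale the intestinal sum was still higher in unc-30(ok613) (5774 to 7586 CPM in unc-30(ok613) and 3446 to 5700.5 CPM in wild type). The epidermal, muscle and germ line sums overlapped, and the neuronal sum was lower (179 to 199 CPM in unc-30(ok613) and 211 to 238 CPM in wild type), as were the sperm sum (195 to 239.7 CPM in unc-30(ok613) and 417 to 657 CPM in wild type) and the yolk sum (530.4 to 9191 CPM in unc-30(ok613) and 9719 to 37997 CPM in wild type). No marker was at 0 in all libraries. Within unc-30(ok613) the yolk sum on the TMM scale was far higher in replicate 1 than in replicates 2 and 3. All libraries are labelled L4, and whether they differed in stage within L4 was not tested. The part of these tissues, or of any difference in stage between the groups, in the differences of the 10 enzymes was not tested.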

How the data were processed

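Each library has 1 deposited file of unnormalized read counts by WormBase gene, for which the submitters' processing notes name HTSeq and DESeq2. Aligner, genome build, annotation, strand setting and versions were not given in the sources used here. Symbols and coordinates are from Ensembl release 115 of WBcel235, where 46863 of the 46911 identifiers were found. Ribosomal RNA took 7.65% to 12.7% of counts in unc-30(ok613), and 3.84%, 0.394% and 8.20% in wild type replicates 1 to 3. Between replicates, chi-square per degree of freedom over genes was 31.9 to 255, so none was a repeated deposit.

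All tested genes were fitted together with the quasi-likelihood test of edgeR 4.0.16 (R 4.3.3): TMM factors, default expression filter, robust fit, group as the only term, Benjamini-Hochberg adjustment over 14506 genes, threshold 0.05. Log2 fold changes are unc-30(ok613) minus wild type. On 5 simulated sets of this comparison (14138 to 14176 genes tested, 200 changed), edgeR called 54.2% to 66.3% of 4-fold and 0% to 9.28% of 2-fold changes, and 25 of its 338 calls were false. These rates apply to sets with 200 changed genes. Recovery and false calls with as many changed genes as were called in the real comparison were not tested. Alternatives were DESeq2 1.42.0, limma-voom (limma 3.58.1), other scalings, no filter, a replicate block, removal of length trends and libraries left out. Ratios used counts plus 0.5 per kilobase of exon, with exact permutation tests over the 6 libraries. Intervals of the fit are two-sided.

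The members, lists and tests were chosen with earlier results of these data known. All 10 members are named, and from each list the 2 largest rises and 2 largest falls that passed. Sequences were not used here.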

Additional observations from a re-analysis of the deposited data

How the results depend on the processing

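Over 15 alternative settings and 10 members, 130 of 150 values brought no change of a call, 10 lost a call, 3 gained a call and 7 changed sign where at least 1 of the values compared was a call. All 7 changed sign under library-total scaling, where the log2 fold changes were -0.066 for sams-1, -0.89 for sams-3, -0.77 for sams-4, -0.20 for sams-5, -0.54 for pmt-1, -0.13 for pmt-2 and -0.13 for mel-32. Among the other named genes cka-2 (-0.037), ckb-4 (-0.10) and pod-2 (-0.060) changed sign there too. That scaling called 8673 genes over the whole table, in place of 5511, with 498 higher (2476 with TMM) and 8175 lower (3035 with TMM). It called 1 member higher and 5 lower, and 3 listed genes of the pathway higher and 39 lower. With length trends removed 5 of those listed genes were lower, in place of 8, and 2643 genes over the whole table, in place of 3035. Leaving out single libraries gave 2791 to 6154 called genes, 2 to 5 members higher, and 9 to 28 listed genes higher and 1 to 7 lower. The 10 calls of members that were lost were those of sams-5, pmt-2 and mel-32 with single libraries left out, as given above. The share of sams-1 and the 9 ratios between members moved by less than 1 SD, pooled over both groups, with single libraries left out. Without both libraries that stood apart, pmt-1 over pmt-2 moved by more, to -0.88, and the share and the other ratios by less.

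Same-numbered libraries of the 2 groups had deviations from their group means that correlated at 0.46, 0.44 and -0.07, so the numbers were not taken to pair the samples. Not every library correlated best with its own number. With the replicate block 6943 genes were called and 5 members rose. With 3 libraries a group, the intervals of the members that did not pass still allow changes of up to about 0.7 in log2 on the TMM scale, and up to 0.95 for pmt-1.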
